A study of Mus musculus with 2 samples.

Results

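The genes described here are 9 genes of programmes in which ISL1 acts outside the retina, 6 of the heart (Mef2c, Hand2, Nkx2-5, Bmp4, Tbx1 and Myocd) and 3 of the pancreas (Pdx1, Mafa and Slc30a8), out of 21887 protein-coding genes. They were taken by name, and every listed interval of ISL1 signal that overlapped the gene span extended by 50 kb to each side was kept. These windows covered 1.23 Mb and held 63 of 123923 intervals in replicate 1 and 78 of 158881 in replicate 2, so 141 intervals are described. The data came from CUT&Tag, in which an antibody against a chromatin protein directs a transposase that cuts and tags the DNA nearby. There was a single group with 2 samples: retina of wild type mice at E13.5, with ISL1 as the antibody target and no other allele or agent given. The protocol lists 2 rabbit antibodies to ISL1, and which sample received which is not stated. Nothing says whether the samples came from separate litters or how many retinae were pooled, and a control antibody, a mutant or heart and pancreas tissue was not analysed here. With 1 group no test between groups was possible, so the values below are descriptions of 2 libraries, and their spread may be technical. The whole lists span 41.8 Mb (replicate 1) and 54.6 Mb (replicate 2). Their read depth is unknown, so signal was ranked within a list and its size was not compared between lists.

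ISL1 is a LIM-homeodomain transcription factor, which binds DNA through a homeodomain and partner proteins through LIM domains. In the embryo it marks progenitors of the second heart field, where Mef2c is a known direct target. In the endocrine pancreas it is needed for the maturation of beta cells, where Mafa is a reported target. In the retina it acts instead in the differentiation of ganglion cells, and the question put to the files here was how often the heart and pancreas loci carried ISL1 signal in that tissue.

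Upstream sequence is shown for the gene with an end closest to a peak of both replicates among those with a sequence at hand, Hand2, and for the 1 gene start that an interval overlapped, that of Tbx1. Both are the 250 bases before an annotated start, from RefSeq (GRCm38.p6, the assembly behind mm10). The Hand2 stretch is chr8:57320733-57320982 on the plus strand, with capitals at TAAT read on either strand. The Tbx1 stretch is chr16:18590672-18590921 on the minus strand, with capitals at the 115 bases covered by an interval of replicate 1.
Hand2: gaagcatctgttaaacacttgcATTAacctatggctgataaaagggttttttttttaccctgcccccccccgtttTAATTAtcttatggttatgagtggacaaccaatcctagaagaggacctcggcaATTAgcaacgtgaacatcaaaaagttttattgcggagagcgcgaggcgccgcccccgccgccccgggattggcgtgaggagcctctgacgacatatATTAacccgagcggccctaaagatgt
Tbx1: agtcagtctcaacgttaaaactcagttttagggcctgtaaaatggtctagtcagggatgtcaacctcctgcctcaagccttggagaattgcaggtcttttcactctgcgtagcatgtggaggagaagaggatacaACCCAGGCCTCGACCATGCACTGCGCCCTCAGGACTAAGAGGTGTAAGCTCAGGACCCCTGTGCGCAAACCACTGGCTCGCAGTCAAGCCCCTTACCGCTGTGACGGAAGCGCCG
Hand2 holds 5 matches to TAAT in this stretch, of which a pair overlap each other, while Tbx1 holds 0.

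Peaks found in both replicates occurred at these genes at a share close to that of protein-coding genes in general. Where an interval of one replicate met 1 bp or more of an interval of the other, the merged stretch was called a shared peak, and 6 of the 13704 shared peaks of the genome lay in the windows. They fell at Hand2, Bmp4, Mafa and Slc30a8 with 1 each and at Myocd with 2, that is at 5 of 9 genes (55.6%, 95% Wilson interval 26.7 to 81.1), against 55.4% of all protein-coding genes by the same rule. Mef2c, Nkx2-5, Tbx1 and Pdx1 had 0. When a peak counted only for the single gene whose end lay closest (at most 50 kb away), 4 of 9 genes had one (44.4%, Wilson interval 18.9 to 73.3), against 27.3% of all genes, a share inside that interval. With a maximum signal of at least 5 in both lists, 3 of 9 genes had a shared peak (Hand2, Myocd and Mafa), against 35.5% of all genes. Both measures are as deposited: maximum signal is the peak coverage of an interval, and total signal adds up the coverage of all its bases.

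None of the 6 shared peaks stood at the end of one of these genes or had uneven coverage in a list. A peak within 1 kb of either end of the gene span was found at 0 of 9 genes (Wilson interval 0 to 29.9), against 10.4% of all genes. An interval was called uneven where its total signal was under 95% of its width times its maximum, which needs more than 1 distinct fragment. A peak uneven in both lists was found at 0 of 9 genes, against 7.53% of all genes. Both background shares lie inside the interval that 0 of 9 allows, so a difference from other genes was not detectable with 9 genes. These Wilson intervals treat genes as independent and cover counting error only.

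**Figure D1:**
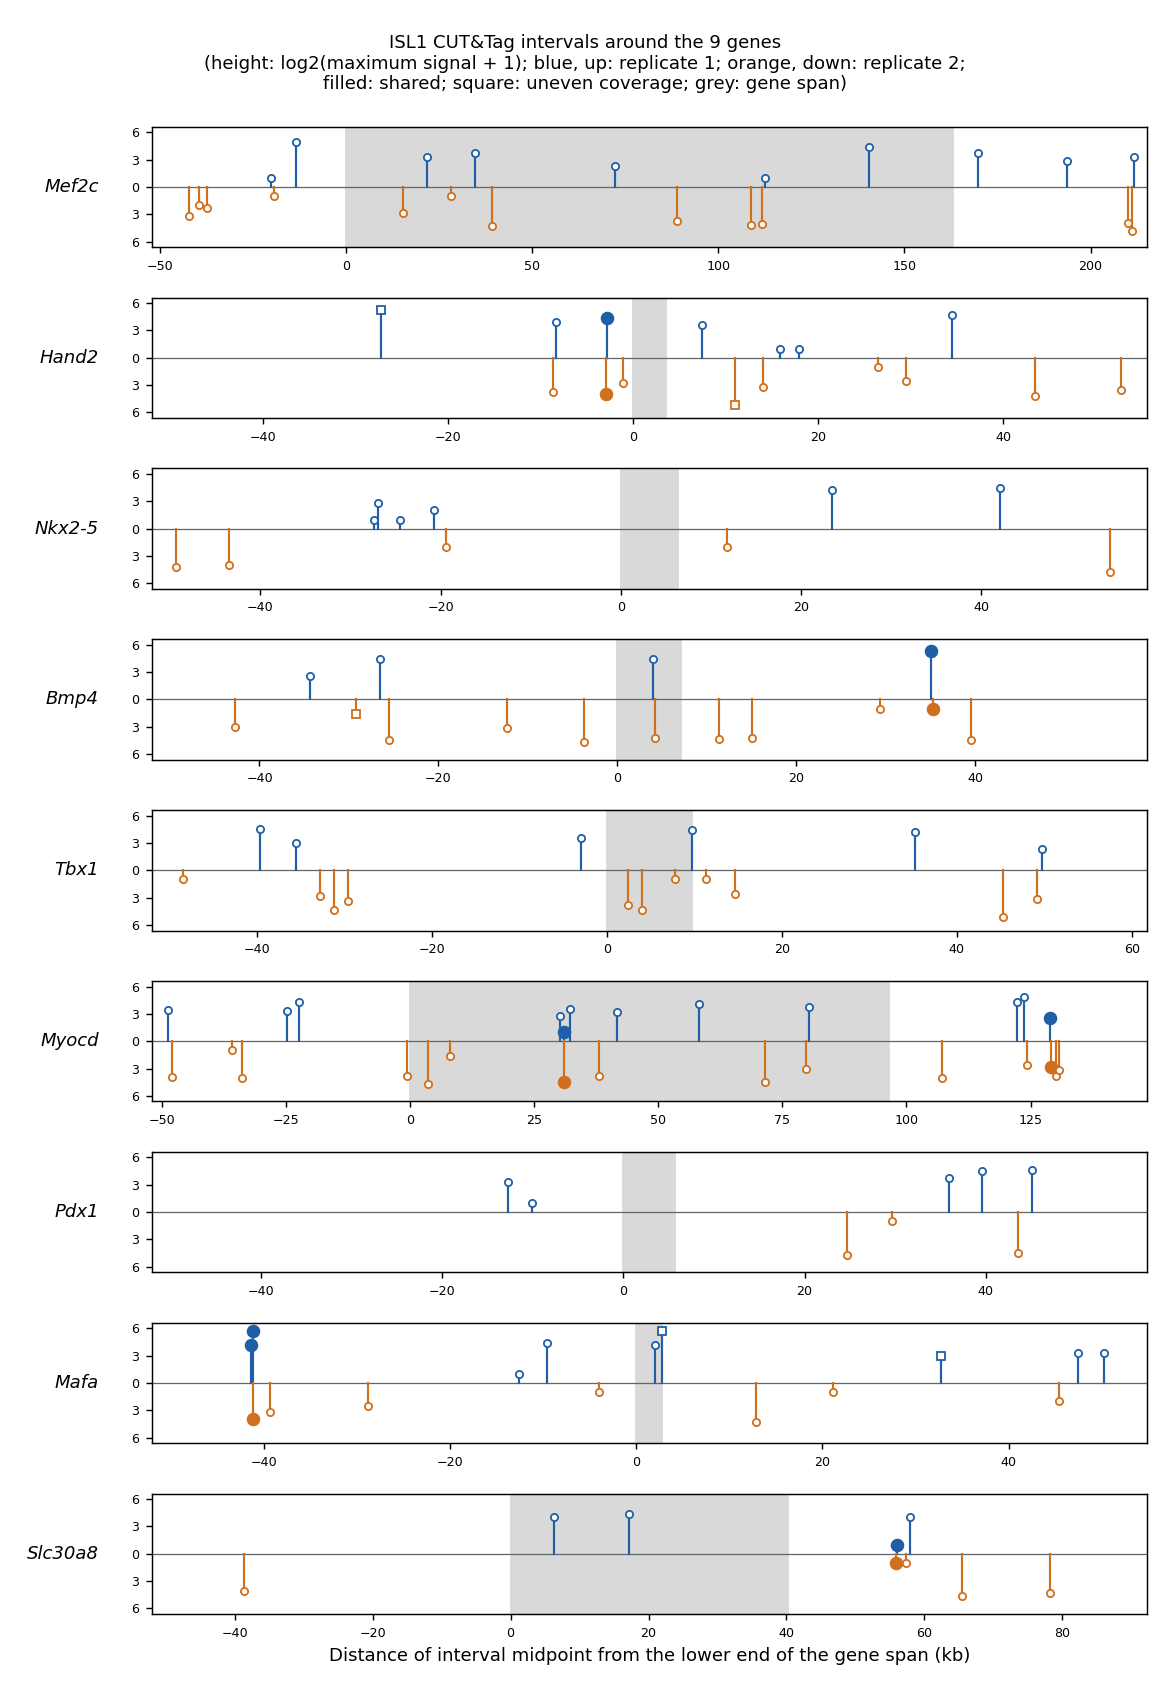
Each row is 1 gene, with the distance of each interval's midpoint from the lower end of the gene span (kb) along the bottom and log2(maximum signal + 1) as height, upward for replicate 1 and downward for replicate 2. Filled circles are the intervals of the 6 shared peaks, squares are uneven intervals and the grey band is the gene span; most marks of one direction have no counterpart in the other.

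Bmp4 encodes a secreted ligand of the bone morphogenetic protein family that patterns the heart outflow tract and, in the eye, the dorsal retina and the lens. It lies at chromosome 14, 46383525 to 46390669, and its window held 4 intervals in replicate 1 and 11 in replicate 2. The shared peak, at 46418413 to 46419001 and 27744 bp upstream of the gene, had a maximum signal of 38 in replicate 1 and 1 in replicate 2. Replicate 1 thus had a total above 98.8% of its list there, while 15.8% of the intervals of replicate 2 were lower than its counterpart. The 2 intervals overlapped by 41 bp, which is 12.5% and 13.6% of their widths, so this pair met only at its edges.

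Other strong intervals at Bmp4 did not overlap between the lists. In replicate 2 an interval 3438 bp downstream of the gene (maximum 24) had a total above 99.2% of its list, the highest place of any of the 141 intervals, and the nearest interval of replicate 1 lay 7312 bp from it. Inside the gene, replicate 1 listed 46387399 to 46387516 (maximum 21) and replicate 2 listed 46387612 to 46387838 (maximum 17), 96 bp apart and therefore not shared. A second near pair lay downstream, with a maximum of 21 in both lists and 553 bp between the intervals.

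Tbx1 encodes a T-box transcription factor of the pharyngeal region and outflow tract. At chromosome 16, 18580979 to 18590671, it had 6 intervals in replicate 1 and 11 in replicate 2, and none was shared. Replicate 1 listed an interval across the outer annotated start, 18590598 to 18590786, with a maximum of 20 and flat coverage, and it covered the 115 upstream bases shown in capitals above. Replicate 2 had no interval there: its nearest, with a maximum of 1, lay 1378 bp away. The genes Gnb1l, Gp1bb and Septin5 lie in the window or reach into it, and the strongest interval of replicate 2 in it (maximum 34) lay inside Septin5 and not near Tbx1.

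Hand2, a basic helix-loop-helix factor required for the right ventricle and the branchial arches, had the shared peak closest to an end of any of the 9 genes. The gene lies at chromosome 8, 57320983 to 57324517, with 7 intervals in replicate 1 and 9 in replicate 2. The peak, at 57317929 to 57318246, lay 2737 bp upstream of the gene. Its maximum signal was 20 in replicate 1 and 15 in replicate 2, and its totals were above 66.9% and 54.0% of their lists. The intervals shared 109 bp, 48.9% of the first and 53.4% of the second, and both were flat.

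Uneven intervals also lay near Hand2, but not at the same place in the lists. In replicate 1 the uneven interval was 26939 bp upstream (maximum 37, total above 98.9% of its list), and in replicate 2 it was 7356 bp downstream (maximum 36, above 72.7%). The nearest intervals of the other list were 18226 bp and 3170 bp away. A further pair of flat intervals, 8211 bp and 8501 bp upstream with maxima of 14 and 13, lay 39 bp apart, the smallest gap among the intervals that were not shared. Replicate 2 also listed a weak interval (maximum 6) 969 bp upstream, the only one within 1 kb of a Hand2 end.

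Nkx2-5, a homeodomain factor of cardiac progenitors, lies at chromosome 17, 26838664 to 26844988, and had 6 intervals in replicate 1 and 5 in replicate 2. None was shared, none lay inside the gene and none was uneven. The highest maximum was 21 in replicate 1, at 35612 bp upstream, and 26 in replicate 2, at 47828 bp upstream, and these 2 lay 12061 bp apart. The latter was nearest to an end of Kifc5b, and by nearest gene end only 3 of 6 intervals and 2 of 5 belonged to Nkx2-5 itself. The closest approach of the lists was 911 bp, between weak intervals with a maximum of 3 each.

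Mef2c, a MADS-box factor of cardiac and other muscle that is also expressed in neurons, had the longest window, 0.263 Mb around chromosome 13, 83504017 to 83667079. It held 10 intervals in replicate 1 and 12 in replicate 2, of which 5 and 6 lay inside the gene, and 0 were shared. None was uneven: the total signal was at least 98.9% of width times maximum in every interval. The highest was in replicate 1 a maximum of 29 at 13263 bp upstream of the gene, and in replicate 2 a maximum of 27 at 47880 bp downstream. That downstream interval lay 316 bp from 1 of replicate 1 (maximum 9), the smallest gap at this gene.

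Myocd encodes myocardin, a coactivator of serum response factor in cardiac and smooth muscle. Its span, chromosome 11, 65173608 to 65269989, had 12 intervals in replicate 1 and 15 in replicate 2, and it was the only gene of the 9 with 2 shared peaks. The first, inside the gene at 65204528 to 65204717, had both ends identical in the lists, with a maximum of 1 in replicate 1 and 21 in replicate 2. Such identical pairs made up 1850 of the 13704 shared peaks of the genome. The second, 32220 bp outside the span at 65302209 to 65302940, had maxima of 5 and 6, with 200 bp in common, 37.0% and 51.0% of the 2 intervals. All 4 of these intervals were flat. Replicate 2 listed an interval 465 bp outside the lower end of the gene (maximum 13), with none of replicate 1 within 21375 bp.

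Pdx1, a homeodomain factor required for the pancreas and for beta cell identity, had the fewest intervals of the 9 genes in replicate 2. At chromosome 5, 147270097 to 147275848, 5 were listed in replicate 1 and 3 in replicate 2, and none was shared, inside the gene or uneven. The strongest of each list lay downstream, at 39203 bp (maximum 23) and 18874 bp (maximum 25), and by nearest gene end they belonged to Urad and Cdx2. By nearest gene end, 2 intervals of replicate 1 and 0 of replicate 2 were closest to Pdx1 itself.

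Mafa encodes a bZIP factor that activates insulin transcription in mature beta cells, and its window held the best-ranked shared peak of the set. The gene lies at chromosome 15, 75745501 to 75748321, with 9 intervals in replicate 1 and 7 in replicate 2. The peak, at 75704087 to 75704487, joined 2 intervals of replicate 1 (maxima 17 and 52) and 1 of replicate 2 (maximum 15), and ranked 1038 of 13704 by the mean of its ranks of summed signal. It lay 41014 bp from Mafa, however, and its midpoint was 41 bp from an end of Rhpn1, which encodes a rhophilin.

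At Mafa itself the signal was in replicate 1 alone. An uneven interval at 75748087 to 75748353, across the upper end of the gene span, had a maximum of 52 and a total above 95.2% of its list, and a second within the gene had a maximum of 17. The closest interval of replicate 2 lay 6277 bp from the uneven one. Replicate 2 listed no interval inside Mafa or within 1 kb of its ends.

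Slc30a8 encodes the zinc transporter ZnT8 of insulin granules. Its span, chromosome 15, 52295553 to 52335798, had 4 intervals in replicate 1 and 5 in replicate 2. The shared peak, 15479 bp outside the span at 52351277 to 52351662, had a maximum of 1 in both lists, an overlap of 23 bp and rank 13306. It was thus the weakest of the 6. Stronger intervals were listed inside the gene in replicate 1 (maxima 16 and 20). Outside it they were listed in replicate 1 (maximum 15) and in replicate 2 (maxima 23, 18 and 16), at different places. The outside interval of replicate 1 lay 187 bp from one of replicate 2 with a maximum of 1.

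**Figure D2:**
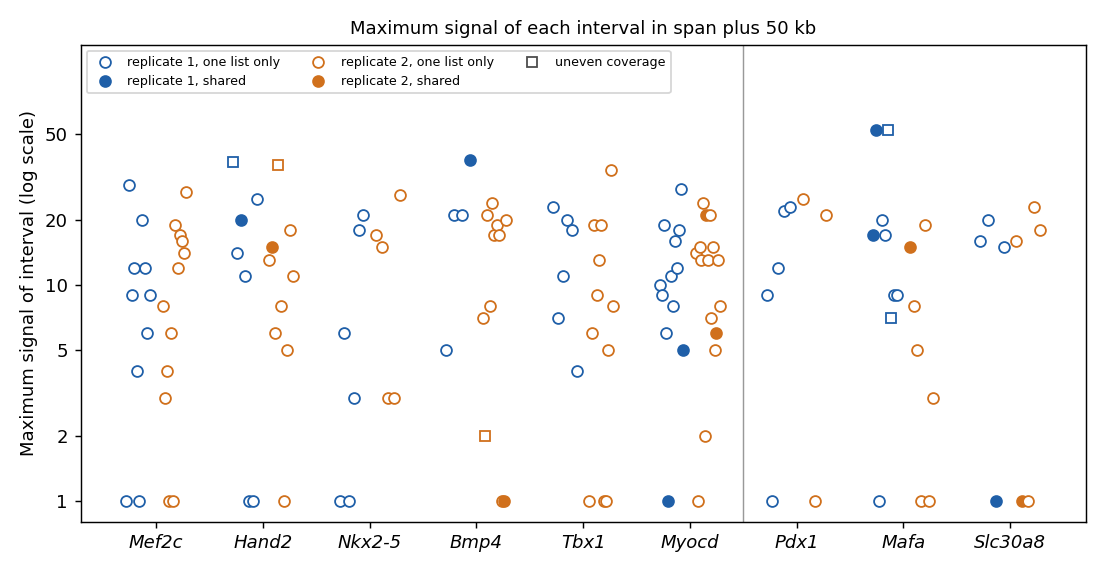
Each point is 1 interval in the window of a gene, with its maximum signal on a log scale; filled points belong to shared peaks and squares are uneven. Only at Hand2 and Mafa did a shared peak reach a maximum of 10 or more in both lists.

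Across the set, most intervals were found in a single list. In replicate 1, 7 of 63 intervals were shared (11.1%, Wilson interval 5.49 to 21.2), and in replicate 2, 6 of 78 (7.69%, 3.57 to 15.8). Over the windows of all protein-coding genes the shares were 11.9% and 9.74%, inside both Wilson intervals. These treat the listed intervals as independent, which they are not. Both counts come from the same 6 shared peaks, and 2 of the shared intervals of replicate 1 belonged to 1 peak. Of the intervals that were not shared, 13 of 56 and 13 of 72 lay within 1 kb of an interval of the other list. These are 23.2% and 18.1%, against 16.36% and 13.53% around all genes. The median gap was 4765.5 bp in replicate 1 and 5329.5 bp in replicate 2, against 4808 bp and 6127 bp. No test was made of these differences.

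Coverage was flat in 48 of 63 intervals (76.2%) and 68 of 78 (87.2%), against 80.8% and 82.2% around all genes. A flat interval has the same coverage at every base, so it can be made of copies of 1 fragment, and whether duplicates were removed is not given in the sources used here. The part of PCR duplicates in these values was not tested. A maximum of 1 was found in 10 intervals of replicate 1 (15.9%) and 14 of replicate 2 (17.9%), against 17.7% and 21.4% around all genes. Uneven intervals numbered 3 in replicate 1, at Hand2 and Mafa, and 2 in replicate 2, at Hand2 and, with a maximum of only 2, at Bmp4. By gene, that is 2 of 9 in each replicate, against 39.2% and 40.5% of all genes.

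Strong intervals were spread over 6 of the genes, at shares close to those around all genes. A total within the highest 5% of its own list was reached by 5 of 63 intervals in replicate 1 (7.94%) and 5 of 78 in replicate 2 (6.41%). Around all genes the shares were 5.80% and 5.92%. The intervals lay at Bmp4, Hand2, Mafa, Mef2c, Tbx1 and Slc30a8. Of these 10, only the upstream Bmp4 interval and the stronger Rhpn1 interval, both of replicate 1, belonged to a shared peak. The partners of both in replicate 2 were below that level. How often strong intervals overlap over all genes is not given here, so this is a description of these loci only.

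All 9 genes had at least 1 interval in each replicate, which says little, since 98.9% and 99.3% of all genes did so too. Windows differ in length, so the numbers were also taken per Mb. In replicate 1 the genes ranged from 28.5 intervals per Mb at Slc30a8 to 87.5 at Mafa, with a median over the 9 of 54.7, against 52.6 for all genes. In replicate 2 they ranged from 28.4 at Pdx1 to 103 at Bmp4, with a median of 68.1 against 61.2.

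The replicates ordered the genes differently. Bmp4 had 37.3 intervals per Mb in replicate 1 and 103 in replicate 2 (mean 70.0 ± 46.2, SD, n = 2), and Tbx1 had 54.7 and 100.3 (77.5 ± 32.2). Mafa, Pdx1 and Nkx2-5 went the other way and were higher in replicate 1, Mafa with 87.5 and 68.1 (77.8 ± 13.8), Pdx1 with 47.3 and 28.4, and Nkx2-5 with 56.4 and 47.0. The values of Mafa overlapped those of Hand2 (77.3 ± 13.7) and of Tbx1. Slc30a8 (32.1 ± 5.04), Pdx1 (37.8 ± 13.4) and Mef2c (41.8 ± 5.38) had the lowest means, and their values overlapped from 1 gene to the next. Nkx2-5 (51.7 ± 6.65) lay above both values of Mef2c, and Myocd (68.7 ± 10.8) lay above both values of Nkx2-5. From Myocd up through Bmp4, Hand2, Tbx1 and Mafa, the values of each neighbouring pair overlapped. No test was made of this order.

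**Figure D3:**
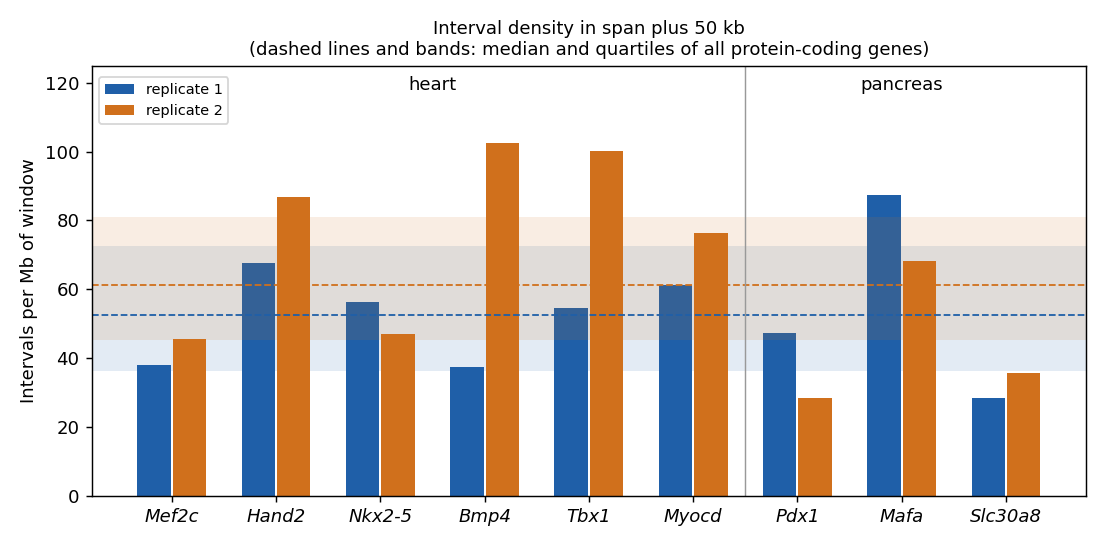
Bars give intervals per Mb of window for each gene in replicate 1 (blue) and replicate 2 (orange); dashed lines and bands are the median and quartiles over all protein-coding genes, 52.6 and 61.2 as medians. In replicate 2 Hand2, Bmp4 and Tbx1 rise above the band, and in replicate 1 Mafa does. Slc30a8 lies below it in both replicates and Pdx1 in replicate 2.

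At the ends of the gene spans, single replicates gave 2 genes each. These were Tbx1 and Mafa in replicate 1, against 38.9% of all genes, and Hand2 and Myocd in replicate 2, against 38.4%. Of the 9 annotated starts that RefSeq promoters give for 6 of the genes (Mef2c, Hand2, Nkx2-5, Bmp4, Tbx1 and Pdx1), the Tbx1 start above was the only 1 whose promoter, 250 bases before to 50 after the start, an interval overlapped. That is 1 of 9 in replicate 1 and 0 of 9 in replicate 2, against 19.1% and 17.1% of the 21263 promoters in the table. Myocd, Mafa and Slc30a8 were not matched in that table.

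Counted within 1 kb of an annotated start, 1 of these 6 genes had an interval in replicate 1 (Tbx1) and 2 in replicate 2 (Hand2 and Tbx1), against 33.9% and 32.8% of 17492 genes in the table. Tbx1 thus had an interval near a start in both lists, but at different starts. In replicate 2 the interval, 18588607 to 18588821, had a maximum of only 1 and lay 78 bp from the inner start at 18588899, while that of replicate 1 covered the outer start at 18590671.

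The promoters themselves were searched on both strands for TAAT, the core that homeodomains bind, for TAATNG, a longer form of it, and for CANNTG, the E-box of basic helix-loop-helix factors such as HAND2. TAAT was present in 6 of the 9 promoters, at 4 genes, against 51.8% of 21263 promoters in the table. TAATNG, which contains TAAT, was present in 4 of 9, at Hand2, Bmp4 and a pair of Mef2c starts, against 17.8%. CANNTG was present in 7 of 9, against 69.0%. The 3 Mef2c starts belong to 1 gene, and a match is only a description of the letters. The Tbx1 promoter that the interval of replicate 1 covered in part (165 bases) had no TAAT match and 2 CANNTG matches. Of these, the 1 in the upstream bases lay outside the covered part, and the other lay inside it.

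Further genes of the same programmes gave a mixed picture. Of 25 other heart programme genes, 17 had a shared peak (68%, Wilson interval 48.4 to 82.8), against 55.4% of all genes. A peak at a gene end was found at 3 (12%, 4.17 to 30.0), against 10.4%. One uneven in both lists was also found at 3 (12%, 4.17 to 30.0), against 7.53%. Each share of all genes lay inside the Wilson interval. Nkx2-6, a relative of Nkx2-5, had an uneven peak 9278 bp from the gene with maxima of 98 and 66 (rank 220). Tbx2, a T-box repressor that is also active in the dorsal retina, had an uneven peak 2208 bp away with maxima of 30 and 27 (rank 228). Its peak at a gene end, with 9 and 19, was not uneven in both lists. Nor was its best-ranked shared peak, 1797 bp away with 52 and 28 (rank 128). Bmp7, a ligand with a role in eye development, had a peak 871 bp outside the gene with 8 and 19. Hcn4, a pacemaker channel gene, had one 709 bp outside the gene with 7 and 13, nearest to an end of Rec114. Gata4, a zinc finger factor named after its values were seen, had an uneven peak with maxima of only 4 and 3. Adora2a and Bmp2 had no shared peak.

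Of 25 other pancreas programme genes, 9 had a shared peak (36.0%, Wilson interval 20.2 to 55.5), against 55.4% of all genes. A peak at a gene end was found at 1 (4%), against 10.4%, and one uneven in both lists at 1 (4%), against 7.53%. The genes with these last peaks, Neurod1 and Pax6, are known retinal genes as well. Pax6, a paired-box factor of eye and islet, had 10 shared peaks, 2 of them uneven in both lists, the better with maxima of 61 and 42. Neurod1, a helix-loop-helix factor of photoreceptors, amacrine cells and beta cells, had 2 peaks at its ends, the better with 21 and 30. Foxa2 and G6pc2 had none.

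Eye genes were counted for comparison. All 8 had a shared peak with a maximum of at least 5 in both lists, against 35.5% of all genes. An uneven one in both lists was found at 5, against 7.53%. Of the 9 heart and pancreas genes, 3 and 0 had such peaks. The eye windows also held more intervals of any kind, with medians of 136 and 139 per Mb, against 54.7 and 68.1 at the 9 genes. Six6 had an uneven peak at its end with maxima of 90 and 54, and Atoh7, a helix-loop-helix factor required for ganglion cells, had 5 shared peaks, of which the uneven one, across a gene end, had 42 and 11. Isl1 itself had a single shared peak 4295 bp outside the gene, with 40 and 16. Among Isl1, Isl2 and the Pou4f genes 4 of 5 had a shared peak (Wilson interval 37.6 to 96.4), against 55.4% of all genes. These lists were drawn up with earlier results of these data known, so the difference is a description.

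**Figure D4:**
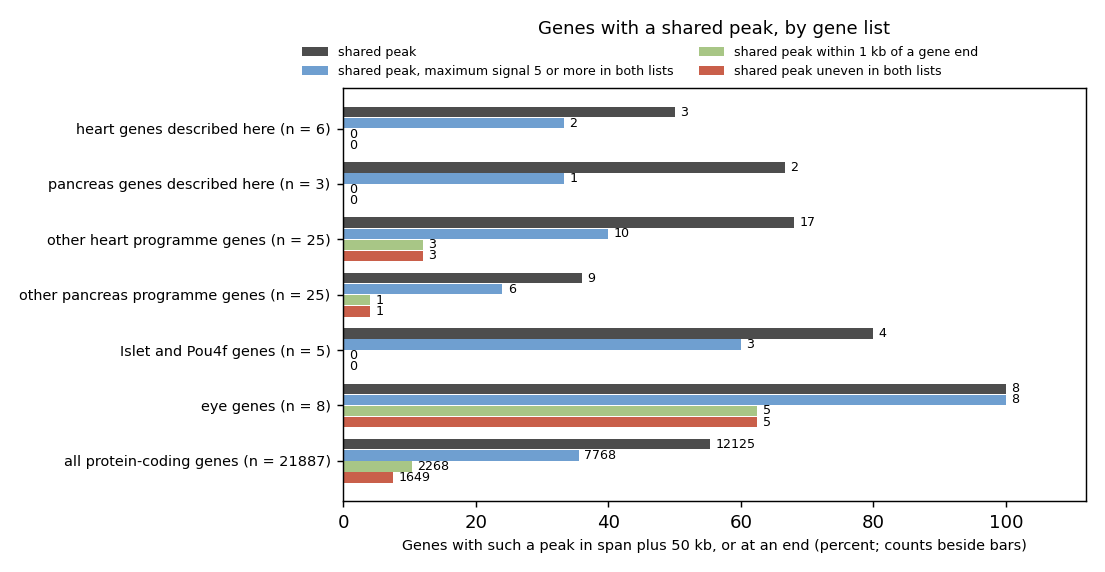
Bars give the percent of genes in each list with a shared peak of 4 kinds, with the number of genes beside each bar. The heart and pancreas genes described here have 0 at gene ends and 0 uneven in both lists, while the eye genes have 5 of 8 for both. The Islet and Pou4f genes likewise have 0 of 5 for both. The shares of all genes are 10.4% and 7.53%.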

How the data were processed

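The authors deposited 1 interval list per sample, with total and maximum signal (summed and highest coverage) per interval as whole numbers. FastQC, Bowtie2, MACS2, SEACR and the build mm10 appear in the submitters' processing notes. For caller, threshold, control, duplicates and filters, the choice made is not given in the sources used here. Repeated PCR copies, if kept, would raise the signal of an interval.

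Only the autosomes, X and Y were used, with 1-based mm10 coordinates and RefSeq gene spans. No exons were used, so exons, introns and UTRs are not separated, and "inside" means within the span. Distances run between nearest bases. Upstream and downstream follow the strand of the promoter table. Shared peaks were ranked among all shared peaks by the mean rank of summed total signal.

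All 9 genes are named. From the other lists, genes with a peak uneven in both lists or at a gene end are named, up to 4 by rank, and up to 2 without a shared peak in alphabetical order. Atoh7, Six6, Pax6 and Isl1 are also named, as is Rhpn1, nearer to a shared peak than Mafa. Gata4, Gnb1l, Gp1bb, Septin5, Urad, Cdx2, Kifc5b and Rec114 were named after their values were seen. The members and lists were chosen with earlier results of these data known.

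Python 3.11.15, numpy 2.4.6, pandas 2.3.3 and scipy 1.17.1 were used, and the counting was tested on simulated lists. Other windows, overlaps, signal limits, uneven limits and single replicates were tried.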

Additional observations from a re-analysis of the deposited data

How the results depend on the processing

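No paired analysis was possible because the samples form 1 group. With windows of 10 kb and 25 kb, 2 and 3 of the 9 genes had a shared peak, with 2 and 3 peaks, against 30.2% and 41.4% of all genes. By nearest gene end within 50 kb, 4 genes had 5 peaks, against 27.3%. With 100 kb, 6 genes had 10 peaks, against 73.5%. Requiring a reciprocal overlap of 50% left 1 gene with 1 peak, the identical pair of Myocd, against 31.9%, and 1.59% and 1.28% of intervals shared. The stronger 50% of each list left 2 genes and 2 peaks, against 28.4%, with 5.26% of intervals shared in replicate 1 and 33.6 intervals per Mb. A maximum signal of at least 2 or at least 5 left 3 genes and 3 peaks each, against 41.5% and 35.5%, and 47.4 and 43.3 intervals per Mb. By construction, each of these settings admits fewer or more intervals or pairs.

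Without a replicate nothing can be shared, so intervals of the remaining list were counted: 9 to 9 genes with an interval, 63 to 78 intervals, 2 to 2 genes with an uneven interval and 2 to 2 at a gene end. Counts of 0 for uneven and gene-end peaks stayed at 0 under every other alternative run for them. Settings that only remove intervals or pairs, or narrow a window or limit, could not raise a count of 0, so they are no check of it. For uneven peaks, the 100 kb window and a looser uneven limit could have raised the count. For gene ends, a wider end window and annotated starts could have done so. Pairing intervals by the distance of their centres could have raised either count. Annotated starts were an alternative chosen after seeing the data. Unknown read depth and 9 genes limit what could be detected.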
